A study of Mus musculus with 15 samples.

Results

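The genes described here encode the enzymes of glycolysis, the carriers that bring glucose into the cell and lactate out of it, the oxygen-sensing factors that control them, and other targets of those factors. The list held 35 genes, chosen by name with earlier results of these data known. A gene was measured where a probe set carried that symbol alone, and the brightest such probe set stood for it, which left 31 genes of the 22180 measured in the series. Gpi1 and Eno1 had no probe set under their symbol, Aldoa and Ankrd37 had only probe sets with several symbols, and these 4 were not analysed here. The samples were mouse LSK cells, a sorted bone marrow fraction rich in hematopoietic stem and progenitor cells, on 15 Affymetrix Mouse Gene 2.0 arrays in 3 groups of 5 biological replicates. One group was taken straight after sorting (non-cultured), another was kept in Myelocult medium for 18 h without extracellular vesicles (EV), and the last for the same time with EV from AFT cells, a stromal line. The labels used here name no genotype, strain, age or pooling of animals, and all 3 groups come from the same kind of sort. Setting cultured cells without EV beside non-cultured cells gives the difference of these genes after culture, in samples whose mix of cells may also differ. Setting the 2 cultured groups beside each other gives the difference between culture with and without vesicles.

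Glycolysis splits glucose into pyruvate in the cytosol. Hexokinases trap glucose, phosphofructokinase commits it, and the later enzymes recover ATP before lactate dehydrogenase turns pyruvate to lactate. When oxygen is low, the prolyl hydroxylases of the Egln family no longer mark HIF alpha subunits for VHL-dependent destruction, and HIF raises many of these genes through short DNA elements with the core ACGTG or GCGTG. Hematopoietic stem cells live in a marrow niche poor in oxygen and are known for a high reliance on glycolysis.

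Promoter stretches of 5 genes on which the results turn are shown first, because Hk2, Slc2a1 and Vegfa were lower and Pfkfb3 higher in both cultured groups, and Car9 was higher without EV. Each holds the 250 bases before the annotated start, 5′ to 3′ on the strand of the gene, from RefSeq (build GRCm38.p6), and where a gene has several starts the most upstream one was used. Capitals mark ACGTG or GCGTG on either strand (CACGT or CACGC when read on this one).
Hk2, chr6:82774455-82774704, - strand: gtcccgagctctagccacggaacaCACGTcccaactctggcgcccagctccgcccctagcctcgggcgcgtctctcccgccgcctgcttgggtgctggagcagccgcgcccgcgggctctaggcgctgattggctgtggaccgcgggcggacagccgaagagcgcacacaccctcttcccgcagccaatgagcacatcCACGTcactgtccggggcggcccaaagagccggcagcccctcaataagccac
Slc2a1, chr4:119108495-119108744, + strand: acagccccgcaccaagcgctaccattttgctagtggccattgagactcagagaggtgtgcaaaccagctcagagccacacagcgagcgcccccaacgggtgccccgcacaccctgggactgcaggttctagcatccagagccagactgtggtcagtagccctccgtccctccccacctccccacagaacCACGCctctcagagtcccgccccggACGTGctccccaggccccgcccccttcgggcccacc
Vegfa, chr17:46032378-46032627, - strand: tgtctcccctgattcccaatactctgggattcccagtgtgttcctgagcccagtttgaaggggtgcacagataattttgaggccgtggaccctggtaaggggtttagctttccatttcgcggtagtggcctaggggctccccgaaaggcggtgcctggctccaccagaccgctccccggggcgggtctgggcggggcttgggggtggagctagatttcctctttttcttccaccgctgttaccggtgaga
Car9, chr4:43506776-43507025, + strand: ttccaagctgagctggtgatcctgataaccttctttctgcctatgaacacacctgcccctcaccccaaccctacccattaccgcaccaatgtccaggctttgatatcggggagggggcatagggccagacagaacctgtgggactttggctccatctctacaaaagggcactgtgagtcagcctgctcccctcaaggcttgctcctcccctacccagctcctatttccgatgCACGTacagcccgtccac
Pfkfb3, chr2:11553930-11554179, - strand: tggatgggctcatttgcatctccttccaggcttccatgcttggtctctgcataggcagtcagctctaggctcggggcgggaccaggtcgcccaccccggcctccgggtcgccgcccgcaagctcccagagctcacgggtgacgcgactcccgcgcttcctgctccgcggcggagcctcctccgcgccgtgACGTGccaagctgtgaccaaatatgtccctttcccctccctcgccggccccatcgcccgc

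In Hk2 the 2 matches began 226 and 52 bases before the start, in Slc2a1 61 and 36 bases before it. The match of Car9 began 18 bases before the start and that of Pfkfb3 60 bases before it. The Vegfa stretch held none, which says only that these letters are not in this window. Promoters were found for 28 of the 31 measured genes, and 23 of them (82.1%) held at least 1 match, against 44.6% of the 16990 measured genes with a promoter in the table. For ACGTG alone, either strand, the shares were 53.6% (15 genes) and 18.1%. The list includes genes chosen as hypoxia targets, and the comparison genes were not matched in base content. The larger shares are therefore a description and not a test. ACGTG overlaps its own reverse complement in the palindrome CACGTG, which is also the E-box read by MYC and other factors. Of the genes called lower without EV against non-cultured, 6 of 8 with a promoter held a match, as did 2 of 3 called higher and 15 of 17 not called. The motif was thus present among genes of either direction and among those that were not called, and a match is a description and not a binding site.

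More of these genes were lower after culture than were higher. Without EV against non-cultured, 9 of the 31 genes fell and 3 rose (limma over all genes, threshold of 0.05 on the Benjamini-Hochberg adjusted p), a share of 38.7%. Such a gene is said to be called. Among all 22180 genes 13.6% were called in this comparison, 6.75% higher and 6.88% lower. Since the list was chosen with earlier results of these data known, a larger share among the 31 is a description and not a test. The groups of arrays did not overlap for 3 genes that were higher and 7 that were lower, against 5.89% and 6.10% of all genes (12% together). At an unadjusted p under 0.05 there were 17 of the 31, against 24.3% of all genes. Glycolysis genes are brightly expressed, and bright genes pass more often. Of the 31 genes 29 lay above the dimmest 40% of genes, and the median of the 31 was at percentile 81.1. When the dimmest 40% were left out 13 of these 29 were called, with 23.8% of the genes then tested. That background is still not matched in brightness. The median difference of the 31 genes was log2 -0.22, against 0.01 over all genes. With EV against non-cultured, which uses the same non-cultured arrays, 10 fell and 2 rose, with 14.1% of all genes called, 6.28% higher and 7.85% lower (12 of the 29 and 24.3% without the dimmest genes). There 2 genes were higher and 9 lower without overlap of the groups, against 5.06% and 6.18% of all genes (11.2% together), and 18 had an unadjusted p under 0.05, against 26%. With EV against without EV, 0 of 31 were called by limma and 3 had an unadjusted p under 0.05, with 0.198% (0.180% higher, 0.0180% lower) and 6.82% of all genes at the same thresholds. The count of 0 was the same under every alternative tried. These measurements are of bulk RNA, so that fewer cells of a type and less RNA per cell cannot be told apart.

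**Figure D1:**
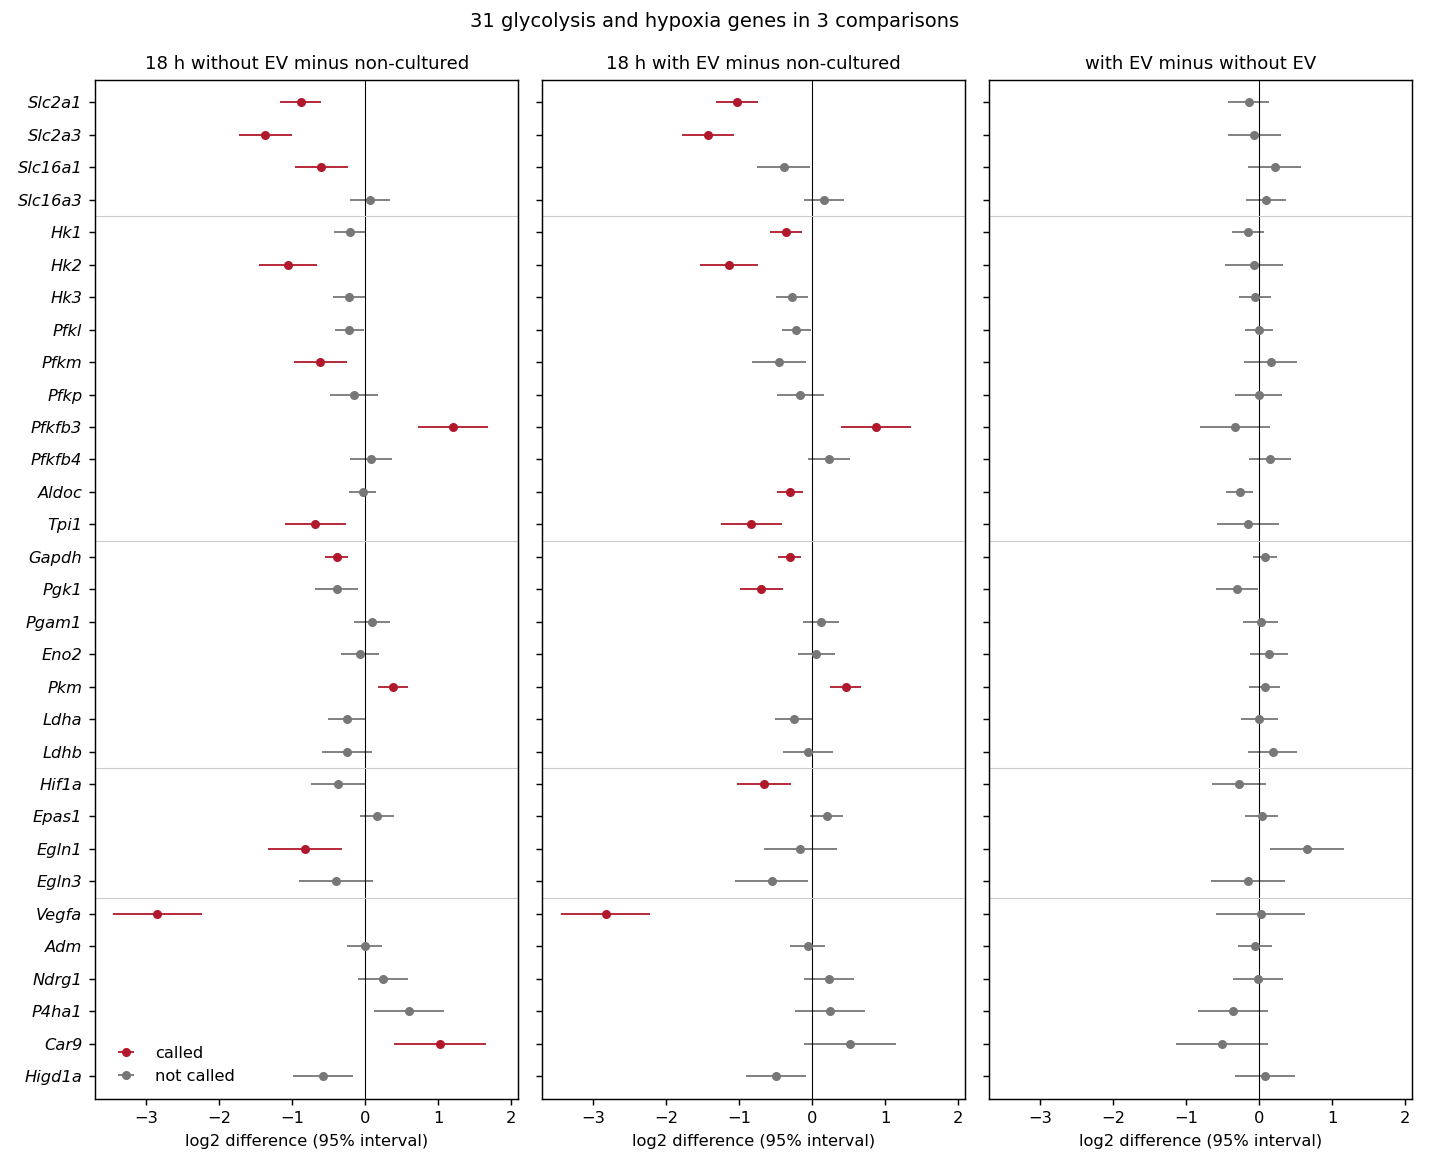
Log2 difference with its 95% interval (x axis) for each of the 31 measured genes (y axis), in the order transporters, early glycolysis, late glycolysis, oxygen sensing and other hypoxia targets, separated by grey lines. Red marks genes called by limma over all genes. Both comparisons with non-cultured cells show Vegfa far to the left (log2 -2.85 and -2.83), whereas with EV against without EV 0 of 31 genes are red.

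Markers of another cell type moved with culture and stand beside every comparison with non-cultured cells. Of 12 mature myeloid markers 9 were called higher without EV, and their mean log2 signal rose from between 5.36 and 6.11 per non-cultured array to between 7.57 and 7.98 without EV and between 7.44 and 7.94 with EV. Csf1r, the receptor for macrophage colony-stimulating factor, rose from a mean of 5.18 to 7.42 without EV (limma adjusted p = 2.26e-07). Genes typical of neutrophils and monocytes rose most, with Chil3 going from 5.02 to 10.28 and Mmp8 from 4.50 to 8.83, and S100a8 went from 8.04 to 10.79 (adjusted p = 7.99e-09, 3.67e-09 and 0.00322). The 3 markers not called were Itgam, Fcgr1 and Ly6g (adjusted p = 0.0826, 0.992 and 0.786). The mean of 10 LSK markers was between 7.62 and 8.01 in non-cultured arrays and between 7.71 and 7.81 without EV, but its members went both ways. Without EV, Kit, Flt3 and Gata2 rose (log2 0.39, 0.63 and 0.69, limma adjusted p = 0.0429, 7.09e-06 and 0.042) and Cd48 and Mecom fell (log2 -0.80 and -0.73, adjusted p = 0.026 and 0.00478). With EV the mean was between 7.49 and 7.79, Flt3 rose, and Mecom and Hlf fell (log2 0.65, -0.86 and -0.38, adjusted p = 4.84e-06, 0.00134 and 0.0297). The mean of 6 lymphoid markers went from between 4.37 and 4.61 to between 3.78 and 3.91 without EV and between 3.82 and 4.09 with EV. Of the 6 only Dntt, the terminal transferase of early lymphoid cells, was called, and it fell from 9.86 to 6.27 without EV (limma adjusted p = 8.71e-08). The other 5 were not called in either comparison with non-cultured cells. Without EV 2 of the 6 were higher and 4 lower, and with EV 4 were higher and 2 lower. The median difference of the 6 was log2 -0.09 without EV and 0.02 with EV. Cd3e and Cd79a were dim (3.73 and 3.63, and 3.95 and 3.71). The mean of 4 erythroid markers lay between 5.53 and 5.94 on all arrays. The part of these markers in the results was not tested. Of the arrays, replicate 1 with EV had the lowest mean correlation with its group over all probe sets (0.928 against 0.943 to 0.947 for the other 4), and array medians lay between 4.62 and 4.74.

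The glucose carrier genes Slc2a3 and Slc2a1 were lower after culture. Slc2a3 encodes GLUT3, a glucose carrier of high affinity. Its log2 signals were 6.47, 6.52, 6.30, 6.85 and 6.32 in the non-cultured arrays, 5.04, 5.61, 5.27, 5.08 and 4.62 without EV, and 4.91, 4.91, 5.50, 4.89 and 5.09 with EV. The non-cultured arrays were all above the cultured ones, and the 2 cultured groups overlapped. Without EV the fall was 2.58-fold (log2 -1.37, SE 0.17, 5 arrays in each group, limma adjusted p = 3.69e-05), and with EV it was 2.70-fold (log2 -1.43, SE 0.17, adjusted p = 2.37e-05). Slc2a1, which encodes the widely expressed carrier GLUT1, had log2 signals of 8.31, 8.40, 8.23, 8.49 and 8.61 in non-cultured cells. Without EV they were 7.33, 7.23, 7.48, 7.58 and 8.01, and with EV 7.26, 7.29, 7.26, 7.45 and 7.64. Again no cultured array reached the lowest non-cultured one. Slc2a1 fell 1.84-fold without EV (log2 -0.88, SE 0.13, limma adjusted p = 0.000252) and 2.04-fold with EV (SE 0.13, adjusted p = 5.77e-05). A second, dimmer probe set of Slc2a1 differed by log2 -0.45 without EV, and was not called when every probe set was tested (adjusted p = 0.0727).

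The lactate carriers moved less. Slc16a1 encodes MCT1, which carries lactate in either direction. It had log2 signals of 5.27, 4.77, 4.74, 5.60 and 4.53 in non-cultured cells, 4.38, 4.47, 4.60, 4.26 and 4.19 without EV, and 4.74, 4.77, 4.60, 4.37 and 4.49 with EV. The ranges overlapped, since non-cultured replicate 5 lay below the highest array without EV. Slc16a1 had a mean of 4.65 over all arrays, near the array medians (4.62 to 4.74), and its signal over background is not known. Slc16a1 fell 1.52-fold without EV (log2 -0.60, SE 0.17, limma adjusted p = 0.0273), whereas with EV it differed by log2 -0.39 (SE 0.17, adjusted p = 0.163). The call without EV was lost without non-cultured replicate 1 or 4, or without replicate 4 or 5 of the group without EV (log2 between -0.57 and -0.44, adjusted p between 0.0552 and 0.0758), and with only the 2 groups compared in the fit (adjusted p = 0.055). Slc16a3, which encodes the lactate exporter MCT4, differed by log2 0.07 (SE 0.13, adjusted p = 0.83).

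Among the hexokinases, Hk2 fell. Hk2 encodes the inducible hexokinase that can bind mitochondria. The arrays read 7.13, 6.86, 7.14, 6.59 and 6.06 in non-cultured arrays, 5.65, 5.77, 5.67, 5.75 and 5.63 without EV, and 5.93, 5.60, 5.47, 5.19 and 5.93 with EV. Both cultured groups lay below every non-cultured array, and the 5 arrays without EV spanned a narrow range (SD 0.06, against 0.45 in non-cultured cells). The fall was 2.09-fold without EV (log2 -1.06, SE 0.19, limma adjusted p = 0.000958) and 2.19-fold with EV (log2 -1.13, SE 0.19, adjusted p = 0.000537). Hk1, the constitutive hexokinase, had means of 7.31 ± 0.09 (SD, n = 5) in non-cultured cells, 7.11 ± 0.14 without EV and 6.95 ± 0.21 with EV. It was not called without EV (log2 -0.20, SE 0.10, adjusted p = 0.263) and was called with EV (log2 -0.36, SE 0.10, adjusted p = 0.028). That call was lost after quantile normalization (log2 -0.27, adjusted p = 0.153), with only the 2 groups compared in the fit (adjusted p = 0.0502), and without non-cultured replicate 3 or replicate 2 or 5 with EV (adjusted p between 0.0679 and 0.0727). Hk3, the hexokinase typical of myeloid cells, differed by log2 -0.22 (SE 0.10, adjusted p = 0.212) without EV and was called with EV only without non-cultured replicate 3 (log2 -0.34, adjusted p = 0.0361). The within-array difference of Hk2 and Hk1 shifted by -0.86 (range -1.09 to -0.73) without EV and -0.77 (range -1.22 to -0.18) with EV, relative to the non-cultured mean, where it ranged from -0.67 to 0.41. Hk2 and Hk1 thus changed unequally without EV, by ranges that did not overlap, whereas with EV they overlapped.

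Of the phosphofructokinase subunits and the enzymes that set its activator, Pfkfb3 rose and Pfkm fell without EV, and the other 3 were not called. Pfkfb3 encodes an enzyme that makes the strongest allosteric activator of phosphofructokinase. The arrays read 6.42, 6.12, 6.29, 5.72 and 6.47 in non-cultured arrays, 6.70, 7.13, 7.31, 7.91 and 8.0 without EV, and 6.81, 7.06, 6.89, 7.14 and 7.53 with EV. Every cultured array was above every non-cultured one. Pfkfb3 rose 2.31-fold without EV (log2 1.21, SE 0.23, limma adjusted p = 0.00158) and 1.84-fold with EV (log2 0.88, SE 0.23, adjusted p = 0.0148). The related Pfkfb4 differed by log2 0.08 (SE 0.13, adjusted p = 0.799) without EV.

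Of the phosphofructokinase subunits, only the muscle-type Pfkm passed in the comparison without EV. It had log2 signals of 5.07, 5.70, 5.73, 5.83 and 5.41 in non-cultured arrays, 5.21, 5.15, 5.04, 4.75 and 4.53 without EV, and 5.21, 4.65, 5.15, 5.02 and 5.43 with EV. Non-cultured replicate 1 lay among the cultured arrays. Pfkm fell 1.53-fold without EV (log2 -0.61, SE 0.17, limma adjusted p = 0.0264) and differed by log2 -0.46 with EV (SE 0.17, adjusted p = 0.0983), where it was called without non-cultured replicate 1 (log2 -0.58, adjusted p = 0.0352). The call was lost without non-cultured replicate 2, 3 or 4, or without replicate 4 or 5 of the group without EV (log2 between -0.57 and -0.51, adjusted p between 0.0638 and 0.0734), and with the replicate number as a block (adjusted p = 0.0618). The liver-type Pfkl differed by log2 -0.22 (SE 0.09, adjusted p = 0.155) and the platelet-type Pfkp by log2 -0.15 (SE 0.15, adjusted p = 0.645) without EV, and neither was called with EV. Without replicate 1 of the group without EV, Pfkl was called lower there (log2 -0.28, adjusted p = 0.0472).

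Further down the pathway, Tpi1 and Gapdh were lower and Pkm higher in both cultured groups. Tpi1, triose phosphate isomerase, had log2 signals of 8.53, 8.34, 8.50, 8.33 and 7.92 in non-cultured arrays, 7.60, 7.55, 8.10, 7.39 and 7.58 without EV, and 7.48, 7.79, 7.94, 7.51 and 6.72 with EV. Only non-cultured replicate 5 overlapped with the cultured groups. The fall was 1.60-fold without EV (log2 -0.68, SE 0.20, limma adjusted p = 0.031) and 1.78-fold with EV (log2 -0.83, SE 0.20, adjusted p = 0.00898). The first of these calls was lost in 8 of 15 fits that left out 1 array, namely non-cultured replicates 1 to 4 and replicates 1, 2, 4 and 5 without EV (log2 between -0.68 and -0.62, adjusted p between 0.0552 and 0.0777).

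Gapdh encodes glyceraldehyde-3-phosphate dehydrogenase and is often used as a reference gene. The arrays read 10.96, 11.04, 11.05, 11.01 and 10.96 in non-cultured arrays, 10.59, 10.68, 10.58, 10.74 and 10.49 without EV, and 10.84, 10.73, 10.67, 10.63 and 10.61 with EV. The drop was small but every cultured array was below every non-cultured one. Gapdh fell 1.31-fold without EV (log2 -0.39, SE 0.07, limma adjusted p = 0.00195) and 1.24-fold with EV (log2 -0.31, SE 0.07, adjusted p = 0.00996). A second bright probe set differed by log2 -0.43 without EV (limma over every probe set, adjusted p = 0.00159) and another, dim one by log2 -0.08 (adjusted p = 0.885). Another 8 probe sets list Gapdh beside other symbols, so signal shared with copies of the gene cannot be told apart. With EV the call was lost after quantile normalization (log2 -0.20, adjusted p = 0.105) and with the mean over the probe sets (log2 -0.14, adjusted p = 0.364).

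Pkm encodes the pyruvate kinase of the last ATP-yielding step. It had log2 signals of 9.58, 9.50, 9.33, 9.51 and 9.49 in non-cultured arrays, 9.73, 10.08, 9.78, 9.74 and 10 without EV, and 10.06, 10.02, 10.08, 9.87 and 9.68 with EV. All cultured arrays were above all non-cultured ones. Pkm rose 1.30-fold without EV (log2 0.38, SE 0.10, limma adjusted p = 0.0156) and 1.38-fold with EV (log2 0.46, SE 0.10, adjusted p = 0.00464). The probe set does not separate the M1 and M2 splice forms.

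Pgk1, phosphoglycerate kinase, was called only with EV. Its log2 signals were 9.01, 8.80, 9.16, 8.88 and 8.74 in non-cultured arrays, 8.51, 8.23, 8.25, 8.86 and 8.78 without EV, and 7.89, 8.34, 8.23, 8.30 and 8.35 with EV. It fell 1.62-fold with EV against non-cultured (log2 -0.70, SE 0.14, limma adjusted p = 0.00238) and differed by log2 -0.39 without EV (SE 0.14, adjusted p = 0.0751), where it passed without replicate 4 of the group without EV (log2 -0.47, adjusted p = 0.0335). The remaining late enzymes were not called in any comparison. Without EV the phosphoglycerate mutase Pgam1 differed by log2 0.10 and the neuronal enolase Eno2 by log2 -0.07. The lactate dehydrogenase subunits Ldha and Ldhb differed by log2 -0.25 (SE 0.12, adjusted p = 0.224) and log2 -0.24 (SE 0.16, adjusted p = 0.416). Without replicate 4 of the group without EV, Ldha was called lower (log2 -0.36, adjusted p = 0.0352).

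**Figure D2:**
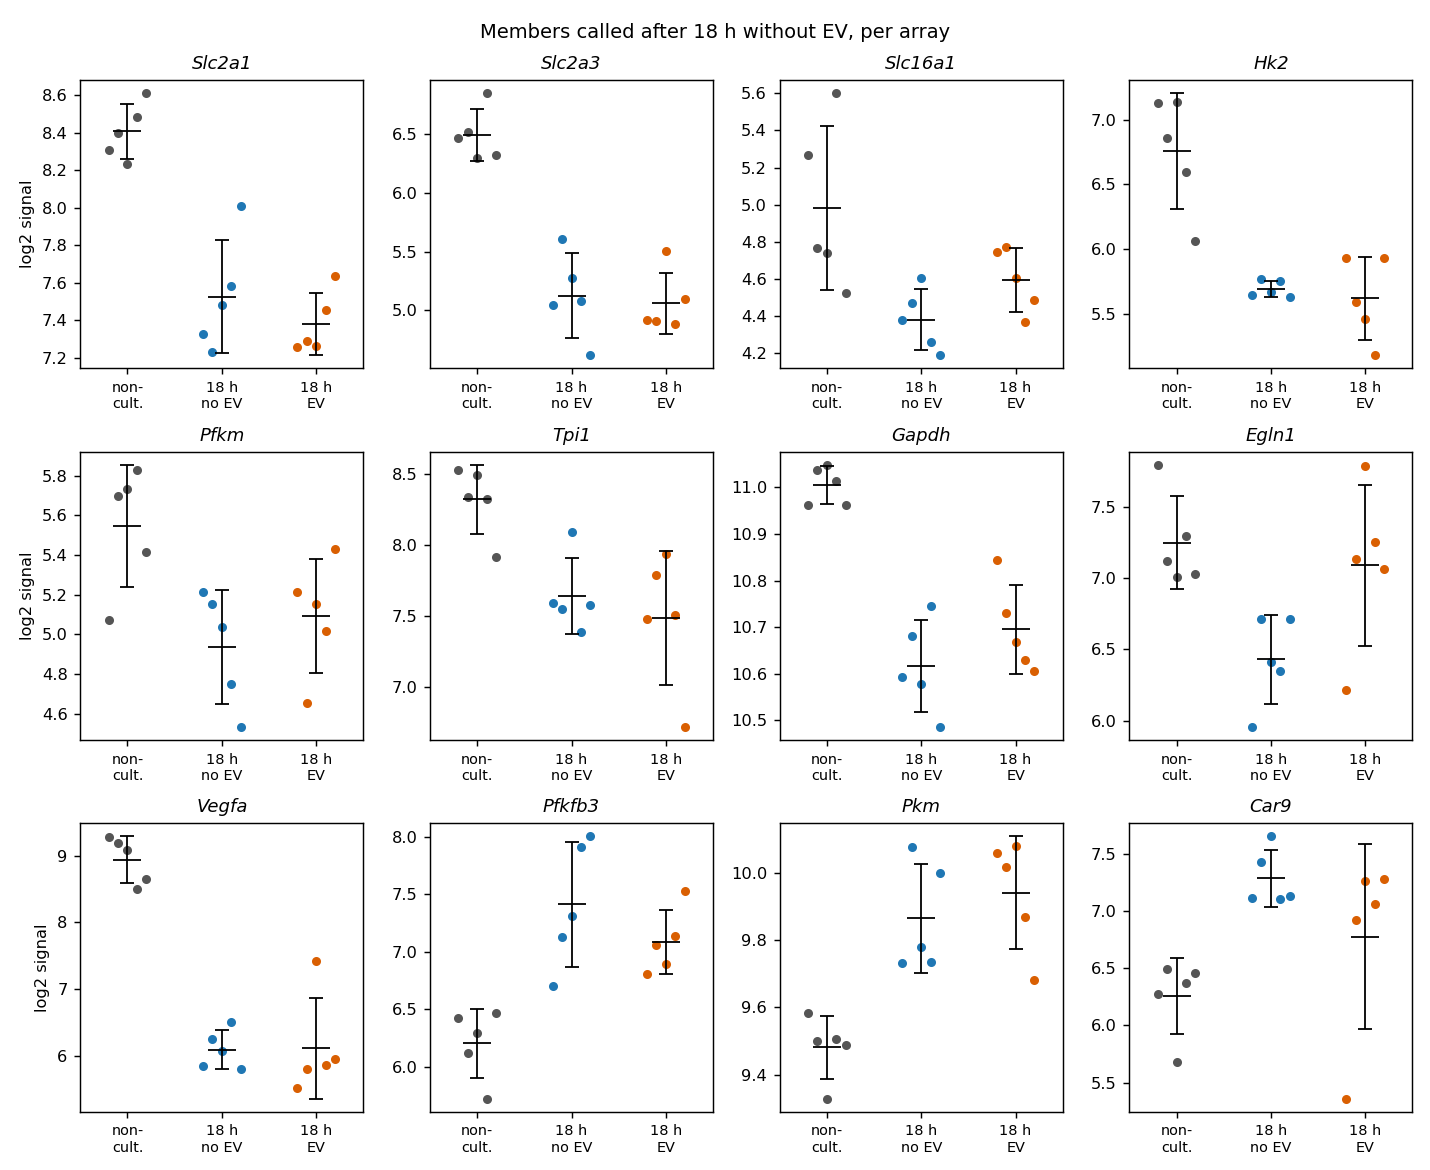
Log2 signal per array (y axis) of the 12 genes called after 18 h without EV, in the 3 groups (x axis). Points are arrays, placed in the order of replicates 1 to 5 from left to right, bars are the mean and SD of 5 arrays, and each panel has its own y axis that does not start at 0. Vegfa, Hk2, Slc2a1 and Slc2a3 separate the non-cultured arrays from both cultured groups, and Car9 shows 1 low array with EV (5.36).

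Vegfa, which encodes the vascular endothelial growth factor A, fell most among the 31 genes. Its log2 signals were 9.28, 9.19, 9.08, 8.49 and 8.65 in non-cultured arrays, 5.84, 6.25, 6.06, 6.50 and 5.80 without EV, and 5.51, 5.80, 7.43, 5.86 and 5.94 with EV. Every cultured array was below every non-cultured one, and replicate 3 with EV was well above the other 4. The fall was 7.21-fold without EV (log2 -2.85, SE 0.29, limma adjusted p = 4.79e-06) and 7.12-fold with EV (log2 -2.83, SE 0.29, adjusted p = 4.91e-06).

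Car9, the membrane carbonic anhydrase that is a classic HIF1 target, went the other way. It had log2 signals of 6.28, 6.49, 5.68, 6.37 and 6.46 in non-cultured arrays, 7.11, 7.43, 7.65, 7.10 and 7.13 without EV, and 5.36, 6.92, 7.26, 7.06 and 7.28 with EV. All 5 arrays without EV were above the non-cultured ones, whereas replicate 1 with EV was the lowest of all 15. Car9 rose 2.04-fold without EV (log2 1.03, SE 0.30, limma adjusted p = 0.0286) and differed by log2 0.52 with EV (SE 0.30, adjusted p = 0.296). Without replicate 1 of the group with EV the latter difference was log2 0.87 and was called (adjusted p = 0.00237), as it was with array weights (log2 0.72, adjusted p = 0.0392). The rise without EV was lost without non-cultured replicate 1 or 3 or without replicate 2 or 3 of the group without EV (log2 between 0.88 and 1.03, adjusted p between 0.0536 and 0.0781). It was also lost with the mean of both probe sets of Car9 (log2 0.56, adjusted p = 0.114), since the dimmer probe set differed by log2 0.10. With every probe set tested, the adjusted p of the brighter one was 0.0554.

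The other hypoxia targets were not called in any comparison. Higd1a, a mitochondrial protein induced by hypoxia, came closest, with means of 7.28 ± 0.31 (SD, n = 5) in non-cultured cells, 6.70 ± 0.25 without EV and 6.78 ± 0.42 with EV. It differed by log2 -0.58 without EV (SE 0.19, limma adjusted p = 0.0603) and passed in 4 of 15 fits that left out 1 array, namely non-cultured replicate 4 or 5, replicate 3 without EV or replicate 1 with EV (log2 between -0.67 and -0.58, adjusted p between 0.0243 and 0.0469). It also passed with array weights, without the dimmest genes and with only the 2 groups compared in the fit (adjusted p = 0.0238, 0.0401 and 0.0339). With EV it differed by log2 -0.50 and passed without replicate 1 of that group (log2 -0.66, adjusted p = 0.018) and with array weights (log2 -0.63, adjusted p = 0.0231). P4ha1, a collagen prolyl hydroxylase subunit, differed by log2 0.60 (SE 0.23, adjusted p = 0.0992), and the stress-responsive Ndrg1 by log2 0.25 (SE 0.16, adjusted p = 0.415). Adm, the vasodilator peptide adrenomedullin, was dim and differed by log2 -0.01 (SE 0.11, adjusted p = 0.988).

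Among the oxygen-sensing genes, Egln1 fell without EV. Egln1 encodes PHD2, the main prolyl hydroxylase that marks HIF alpha for destruction. Its log2 signals were 7.79, 7.12, 7.01, 7.29 and 7.03 in non-cultured arrays, 5.96, 6.72, 6.41, 6.35 and 6.72 without EV, and 6.22, 7.13, 7.79, 7.25 and 7.06 with EV. The arrays without EV were all below the non-cultured ones, and 4 of the 5 arrays with EV were within the non-cultured range. Egln1 fell 1.76-fold without EV (log2 -0.82, SE 0.24, limma adjusted p = 0.0306) and differed by log2 -0.16 with EV (SE 0.24, adjusted p = 0.741). The call was lost without non-cultured replicate 1 or 4 or replicate 1, 3 or 4 of the group without EV (log2 between -0.81 and -0.68, adjusted p between 0.0567 and 0.0869), and with the replicate number as a block (adjusted p = 0.0573).

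Hif1a, the oxygen-regulated alpha subunit itself, had log2 signals of 7.41, 7.26, 7.16, 6.97 and 7.0 in non-cultured arrays, 6.69, 6.89, 6.88, 6.68 and 6.78 without EV, and 5.71, 6.81, 6.88, 6.58 and 6.53 with EV. Cultured arrays were all lower than non-cultured ones. The difference without EV was log2 -0.37 (SE 0.17, limma adjusted p = 0.198), and with EV Hif1a fell 1.57-fold (log2 -0.66, SE 0.17, adjusted p = 0.0177). A second, dimmer probe set of Hif1a differed by log2 -0.36 with EV, and was not called when every probe set was tested (limma adjusted p = 0.112). Without replicate 1 of the group with EV, which was the lowest of all arrays, the difference without EV had the same value and was called (adjusted p = 0.0213), as it was with only the 2 groups compared in the fit (adjusted p = 0.0263). The call with EV was lost without non-cultured replicate 1 (log2 -0.59, adjusted p = 0.0507) and with only the 2 groups compared in the fit (adjusted p = 0.0516). Epas1, which encodes HIF2 alpha, was dim and differed by log2 0.16 without EV (SE 0.11, adjusted p = 0.421). Egln3, which encodes the hydroxylase PHD3 and is itself a HIF target, differed by log2 -0.40 (SE 0.24, adjusted p = 0.352) without EV and log2 -0.55 with EV (adjusted p = 0.148), and was called with EV without non-cultured replicate 5 (log2 -0.74, adjusted p = 0.0336).

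None of the 31 genes was called with EV against without EV. The 95% intervals give the range of differences these arrays allow. With EV against without EV, Vegfa differed by log2 0.02 (interval -0.59 to 0.63), Hk2 by -0.07 (-0.47 to 0.32) and Slc2a3 by -0.06 (-0.42 to 0.29). Slc2a1 differed by log2 -0.15 (-0.43 to 0.14), Pfkfb3 by -0.33 (-0.81 to 0.15) and Gapdh by 0.08 (-0.08 to 0.24). An adjusted p above the threshold does not show that the groups are alike.

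The 3 genes with an unadjusted p under 0.05 were Aldoc, Egln1 and Pgk1. Aldoc, the brain-type aldolase, had log2 signals of 5.95, 5.59, 5.49, 5.55 and 5.58 without EV and 5.42, 5.35, 5.37, 5.36 and 5.31 with EV. It was the only one of the 31 whose groups did not overlap, against 0.437% of all genes lower and 0.762% higher without overlap (1.20% together), and differed by log2 -0.27 (SE 0.09, interval -0.45 to -0.09, limma adjusted p = 0.515). Against non-cultured cells, where its signals were 5.61, 5.63, 5.66, 5.75 and 5.66, it fell 1.23-fold with EV (SE 0.09, adjusted p = 0.0254), a call lost without non-cultured replicate 4 or replicate 5 with EV (log2 -0.28 and -0.29, adjusted p = 0.0618 and 0.054). Egln1 differed by log2 0.66 (interval 0.15 to 1.17, limma adjusted p = 0.588) with EV against without EV, and Pgk1 by log2 -0.30 (interval -0.60 to -0.01, adjusted p = 0.715). Stromal markers were also higher with EV than without EV. The mean of 8 such markers was between 4.60 and 4.73 without EV and between 4.76 and 5.14 with EV, with 0 called by limma and 5 at an unadjusted p under 0.05. In non-cultured arrays, which had no vesicles added, the marker mean was between 4.68 and 4.87. Against these arrays 3 markers were called higher with EV and 1 lower without EV. The part of the stromal markers in these values was not tested.

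**Figure D3:**
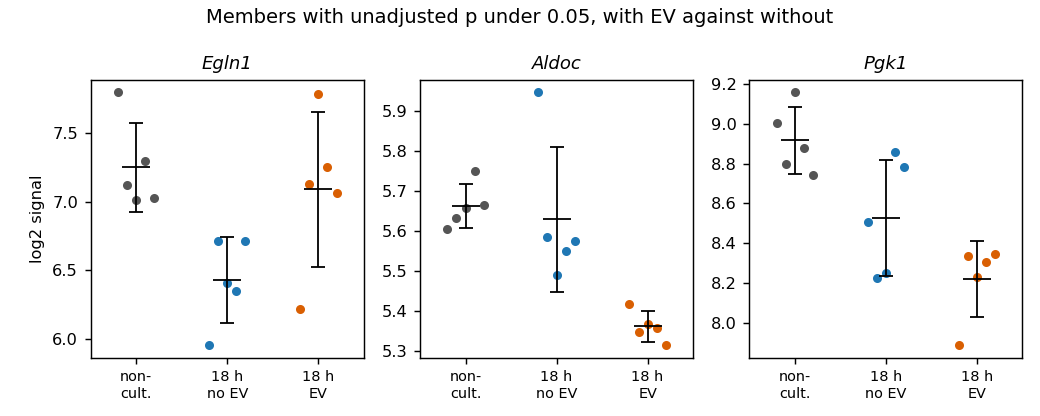
Log2 signal per array (y axis) of Egln1, Aldoc and Pgk1 in the 3 groups (x axis), with points in the order of replicates 1 to 5, the mean and SD of 5 arrays, and a y axis of its own per panel that does not start at 0. Aldoc shows all arrays with EV (5.31 to 5.42) below those without (5.49 to 5.95), and Egln1 shows replicate 1 with EV (6.22) inside the range of the group without EV.

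Other genes of these pathways were read from 7 lists, also chosen with earlier results of these data known. Of 87 measured genes, 10 rose and 9 fell without EV (21.8%, against 13.6% of all genes and 23.8% without the dimmest 40%). With EV against non-cultured 9 rose and 6 fell (17.2%, against 14.1% and 24.3%), and 0 were called with EV against without EV by limma, with 8 at an unadjusted p under 0.05. In the pentose phosphate pathway, which branches from glycolysis to make NADPH and ribose, 2 of 8 rose and 2 fell. Pgd, 6-phosphogluconate dehydrogenase, rose 2.98-fold (log2 1.58, SE 0.18, limma adjusted p = 1.96e-05) and Taldo1, transaldolase, 2.45-fold (SE 0.13, adjusted p = 4.58e-06). Prps1 and Prps2, the synthetases that turn ribose phosphate to the nucleotide precursor PRPP, fell 1.63-fold (SE 0.16, adjusted p = 0.00736) and 1.60-fold (SE 0.14, adjusted p = 0.00312). All 4 were also called in these directions with EV against non-cultured, at log2 1.45, 1.12, -0.69 and -0.96 in that order.

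Of 18 other enzymes of glycolysis and gluconeogenesis, 2 rose and 1 fell. Pfkfb2, a relative of Pfkfb3, rose 2.14-fold (log2 1.10, SE 0.18, limma adjusted p = 0.000637). Bpgm, which makes bisphosphoglycerate from a glycolytic intermediate, rose 1.57-fold (SE 0.19, adjusted p = 0.0275), and the gluconeogenic phosphatase Fbp1 fell 1.34-fold (SE 0.13, adjusted p = 0.035). In glycogen metabolism 1 of 8 rose, the phosphorylase Pygl (log2 0.52, SE 0.14, adjusted p = 0.0192), and 1 fell, the phosphorylase Pygm (log2 -0.54, SE 0.15, adjusted p = 0.0254). With EV, Pygl differed from non-cultured cells by log2 0.10 (adjusted p = 0.727) and from cells without EV by log2 -0.43 (adjusted p = 0.538). None of 12 other sugar and monocarboxylate transporters was called by limma, and 0 had an unadjusted p under 0.05.

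Regulators of HIF moved both ways without EV, with 2 of 11 higher and 1 lower. Hif3a, an alpha subunit with forms that hold back the others, rose 3.83-fold (log2 1.94, SE 0.20, limma adjusted p = 6.21e-06). Cited2, which competes with HIF1 alpha for its coactivator, rose 1.72-fold (SE 0.10, adjusted p = 4.04e-05), and Siah2, a ubiquitin ligase that acts on the prolyl hydroxylases, fell 1.69-fold (SE 0.13, adjusted p = 0.000605). Of 21 other hypoxia targets 3 rose and 4 fell. Ddit4, an inhibitor of mTORC1, rose 4.07-fold (log2 2.03, SE 0.27, adjusted p = 8.98e-05) and the histone demethylase Kdm3a rose 1.40-fold (SE 0.11, adjusted p = 0.00833). Bhlhe40, a transcriptional repressor, fell 2.63-fold (SE 0.24, adjusted p = 0.000816) and the cytokine Mif fell 2.17-fold (SE 0.09, adjusted p = 2.58e-07). None of 9 genes for other VEGF ligands and receptors was called by limma, with 1 at an unadjusted p under 0.05 without EV.

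**Figure D4:**
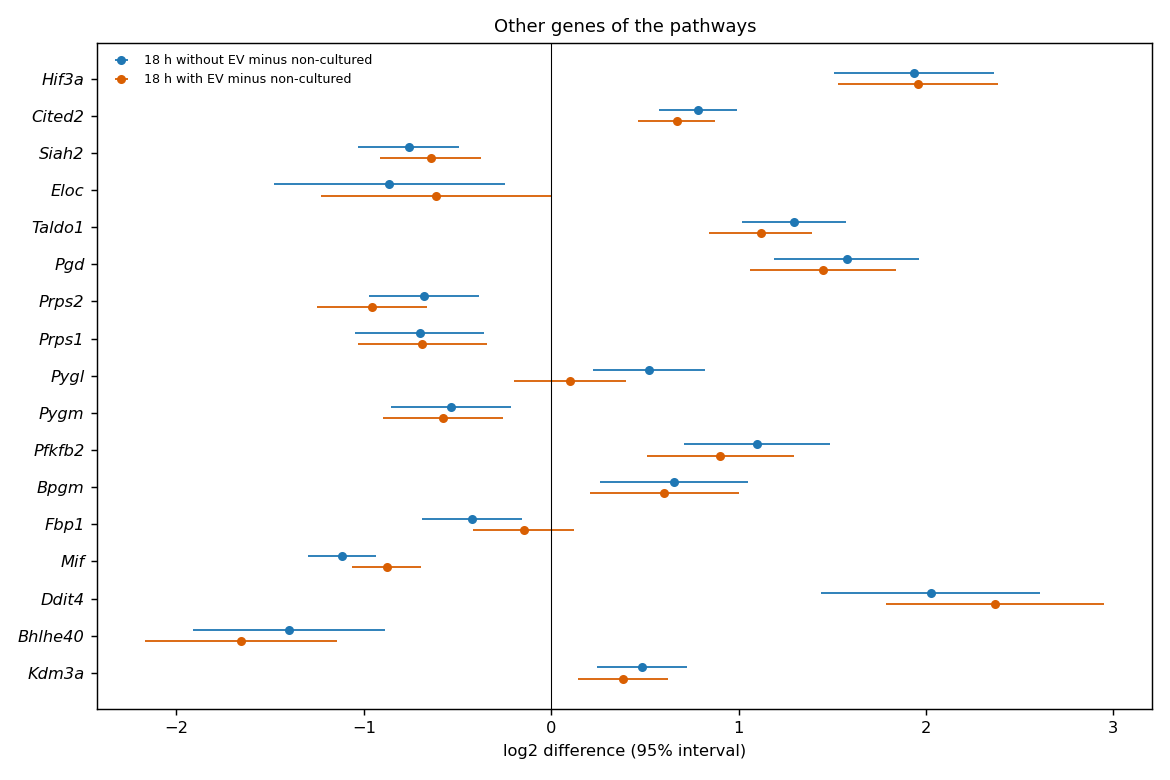
Log2 difference from non-cultured cells with its 95% interval (x axis) for 17 other genes of the pathways (y axis), without EV in blue and with EV in orange. Both comparisons share the non-cultured arrays, and Ddit4 (log2 2.03 and 2.37) and Bhlhe40 (log2 -1.40 and -1.65) lie farthest to either side of the genes drawn, with Hif3a close to Ddit4.

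The non-cultured arrays were not alike. Replicates 4 and 5 had the lowest means of the 12 myeloid markers (5.36 and 5.55, against 6.06 to 6.11 in replicates 1 to 3). The gap was largest in S100a8 (5.92 and 6.42, against 9.20 to 9.37) and S100a9 (6.02 and 6.26, against 8.63 to 9.47). Not all markers shared it: Lyz2 was 9.69 and 9.65, against 9.42 to 9.68. Csf1r was highest in replicate 4 (5.74) and Itgam in replicate 5 (6.76). Of the 31 genes 6, Hk2, Tpi1, Hif1a, Egln3, Vegfa and Higd1a, had their 2 lowest non-cultured values in replicates 4 and 5. Another 5, Slc2a1, Slc16a3, Hk3, Aldoc and Ndrg1, had their 2 highest there. These 11 genes are 35.5% of the 31, and the same held for 25.6% of all genes. Without both arrays, an alternative chosen after the data were examined, 9 genes were called without EV against non-cultured, 8 lower and 1 higher. Against 13.6% with all arrays, 11.7% of all genes were called in that fit. Vegfa was then lower by log2 -3.10 and Hk2 by -1.35, both called. The calls for Pfkm, Pkm, Egln1 and Car9 were lost (adjusted p = 0.0994, 0.0537, 0.0699 and 0.0589), while their differences were log2 -0.56, 0.39, -0.88 and 1.13, close to those with all arrays, and Higd1a was called lower (log2 -0.79, adjusted p = 0.0229). With EV against non-cultured, Pfkfb3, Hk1 and Aldoc lost their calls (adjusted p = 0.0575, 0.0684 and 0.119) at differences of log2 0.81, -0.39 and -0.27, also close to those with all arrays, and Egln3 and Higd1a were called lower (log2 -0.81 and -0.71). Of all genes 12.2% were called there, against 14.1% with all arrays.

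**Figure D5:**
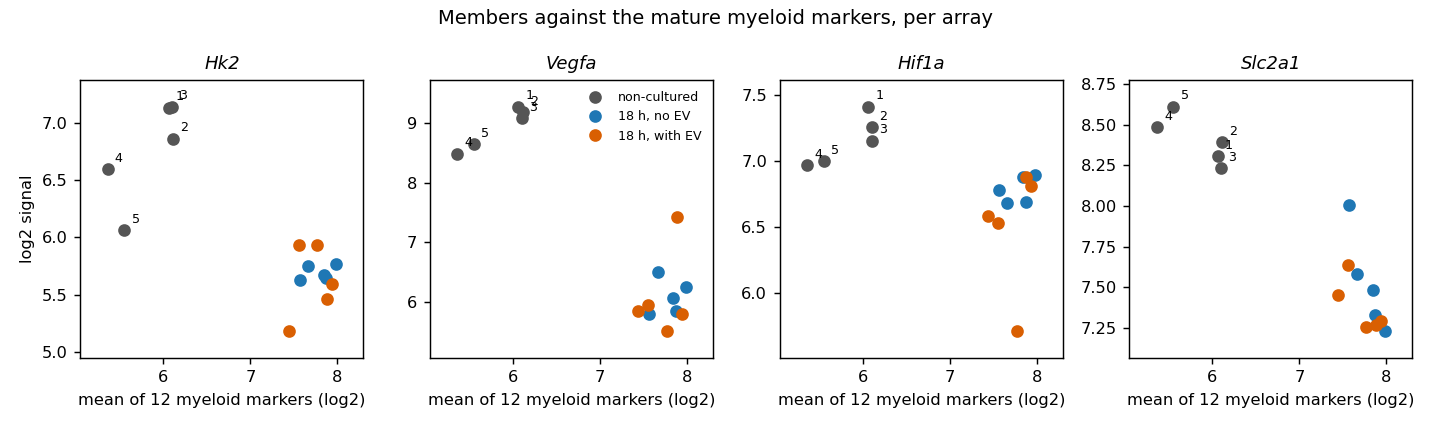
Log2 signal of Hk2, Vegfa, Hif1a and Slc2a1 (y axes, each with its own range) against the mean log2 signal of 12 mature myeloid markers (x axis), 1 point per array, with non-cultured replicates numbered. Non-cultured replicates 4 and 5 lie left of the other non-cultured arrays, with lower Hk2, Vegfa and Hif1a and higher Slc2a1, and all cultured arrays lie to the right at 7.44 or more. Among non-cultured arrays the gap in the marker mean was largest in S100a8 and S100a9, and not all markers shared it.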

How the data were processed

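RNA of 15 samples was hybridised to 1 array each. The values are those of the deposited table, taken as log2 values from their range (1.40 to 13.0), since the authors' log base, background correction and normalization are not stated in any source read here. The submitters' processing notes list MAS5 alone, without a version or a role. Probe sets with 1 gene symbol in the platform annotation were used, with the highest mean over all arrays standing for a gene (22180 genes from 41345 probe sets). Outdated context symbols were brought up to date (Eloc, Elob, Ero1a, Vegfd). A group-means model of all 15 arrays was fitted with limma 3.58.1 in R 4.3.3 (lmFit, eBayes), and calls are two-sided, at a threshold of 0.05 after Benjamini-Hochberg adjustment over the 22180 genes. Printed SEs are the moderated ones on the log2 scale, also beside a fold. The fit was tested on simulated data. All measured members could be named, and from each context list up to 4 genes with the smallest p without EV against non-cultured and 2 with EV against without EV, besides markers. The members and lists were chosen with earlier results of these data known. Labels give no batch, date or animal, so p-values measure only the spread between these samples, and signal over background is not known for dim genes. The number of arrays limits the precision (median SE 0.13). Alternatives were quantile normalization, median centring, no dim genes, mean over probe sets, 2-group fits, array weights, the replicate block and leaving out arrays.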

Additional observations from a re-analysis of the deposited data

Results flagged for a closer look

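Of the 93 sets of 5 arrays (31 genes in 3 groups), 11 held 1 array far from the other 4 by the Dixon test at 5%, which flags about 1 set in 20 by chance. They are given as values. With EV, replicate 1 was low for Car9 (5.36, against 6.92 to 7.28 in the other 4) and Pgk1 (7.89, against 8.23 to 8.35), and replicate 3 was high for Vegfa (7.43, against 5.51 to 5.94). Without EV, replicate 1 was high for Aldoc (5.95, against 5.49 to 5.59) and low for Ldhb (6.14, against 6.71 to 6.89). Replicate 3 of that group was high for Pgam1 (8.53, against 7.90 to 8.05) and replicate 5 low for Slc16a3 (4.80, against 5.30 to 5.47). Among non-cultured arrays, replicate 3 was high for Hk1 (7.47, against 7.26 to 7.28) and low for Car9 (5.68, against 6.28 to 6.49). Replicate 4 was high for Pfkfb4 (4.81, against 4.20 to 4.36) and replicate 5 for Ldhb (7.27, against 6.77 to 6.91).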

How the results depend on the processing

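Across the 93 gene results (31 genes in 3 comparisons), 0 called differences changed sign under any alternative. Of 2133 recomputed values 48 lost a call and 22 gained one. In 15 fits that left out 1 array, without EV against non-cultured called 8 to 14 of the 31 genes (6 to 11 lower, 2 or 3 higher), with the lowest count without non-cultured replicate 1, and with EV against non-cultured called 10 to 14 (8 to 11 lower, 2 or 3 higher). With EV against without EV called 0 in all of them. Without both of non-cultured replicates 4 and 5, 1 gene was called higher in each comparison with non-cultured cells. In that fit 11.7% of all genes were called in either direction without EV and 12.2% with EV. The other 7 alternatives called 10 to 13 genes without EV and 10 to 14 with EV against non-cultured. Of all genes they called 13.1% to 15.8% and 12.7% to 15.1%, except without the dimmest 40%, where the shares were 23.8% and 24.3%. Slc2a1, Slc2a3, Hk2, Vegfa, Gapdh and Pfkfb3 kept their calls without EV under all 23 alternatives, and Slc2a1, Slc2a3, Hk2, Vegfa, Tpi1, Pgk1 and Pkm kept theirs with EV against non-cultured. Whether the replicate numbers pair the samples was not settled. Of 15 same-numbered pairs of arrays from different groups, 1 had residuals that correlated above 0.1, as did 2 of 60 differently numbered pairs. Between the 2 cultured groups, replicates 1 to 5 correlated with their same-numbered array at 0.19, 0.06, 0.04, 0.02 and 0.06. Differently numbered arrays of these groups correlated between -0.08 and 0.07. With the replicate block 10 genes were called without EV against non-cultured, 12 with EV against non-cultured and 0 with EV against without EV. The shares of all genes called were 13.5%, 13.8% and 0.176% in that order. The block cost only Pfkm and Egln1 their calls. Quantile normalization moved the median over all genes by less than 0.1 but turned the balance of all calls with EV against non-cultured, from 1394 higher and 1741 lower to 1691 and 1470, and without EV from 1497 and 1525 to 1650 and 1399. The members called were then still mostly lower (8 of 10 and 9 of 12). Dim genes such as Adm and Epas1 cannot be told from background here. The same may hold for Slc16a1, Eno2, Pfkfb4, Pygm and Fbp1. Their means over all arrays (4.65, 4.73, 4.50, 4.44 and 4.78) lay near the array medians.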

Other observations

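Among the context genes, Ero1a and Nrn1 came closest to a call with EV against without EV. Ero1a, an oxidase of protein folding in the endoplasmic reticulum that is also a hypoxia target, had log2 signals of 7.99, 7.62, 8.07, 7.84 and 7.76 without EV and 7.39, 7.24, 7.14, 6.74 and 7.0 with EV, which do not overlap (log2 -0.76, limma adjusted p = 0.163). Ero1a has 2 probe sets under its symbol alone, and only the brighter one is given here. Nrn1, which encodes neuritin, had 4.44, 4.03, 4.17, 4.17 and 4.44 without EV and 4.78, 6.65, 5.89, 5.60 and 4.76 with EV, also without overlap (log2 1.29, limma adjusted p = 0.0907). The mean of Nrn1 over all arrays was 4.71, near the array medians (4.62 to 4.74), and its signal over background is not known. Groups did not overlap in this comparison for 1.20% of all genes.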
